A study of Mus musculus with 20 samples.

Results

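In all, 10 genes of glial glutamate handling and secretion were followed in single cells of the developing mouse habenula: Slc1a2, Slc1a3, Glul, Aqp4, Gja1, Sparcl1, Apoe, Clu, Ptgds and Ttr. They were chosen by symbol, and all 10 were found, among 37994 gene rows of the developmental series and among 36104 gene rows of a second set from E18. Every deposited sample was a plate of single cells in wells, made with CEL-Seq2, a plate-based chemistry that counts transcripts by molecular identifier (UMI). The series held 15 plates of habenula of the Brn3a-tauLacZ line: 1 plate at E12, and 2 at E11, E13, E15, E18, P4, P7 and in adults, where E is embryonic and P postnatal day. Brn3a is an older name for Pou4f1, a transcription factor of habenula neurons. The second set held 5 plates from C57BL/6 mice at E18, with 2 of left habenula, 2 of right habenula and 1 of both sides. That last plate is titled E1 but labelled E18 elsewhere, and was taken as E18. The labels do not say which plates came from separate animals, so p-values measure only the spread between these plates. Sort gate, sex and reporter genotype were not stated in those labels.

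Glutamate released at synapses is taken up mainly by astrocytes through the transporters GLT-1 (Slc1a2) and GLAST (Slc1a3), and glutamine synthetase (Glul) converts it to glutamine, which returns to neurons. Astrocytes also carry the water channel aquaporin-4 (Aqp4) on their endfeet and couple to each other through the gap junction protein connexin 43 (Gja1). Among the secreted proteins, SPARC-like 1 or hevin (Sparcl1) is a matricellular protein that promotes synapse formation, apolipoprotein E (Apoe) carries lipids, and clusterin (Clu) is an extracellular chaperone. Lipocalin-type prostaglandin D synthase (Ptgds) is a product of meninges, choroid plexus and oligodendrocytes, and transthyretin (Ttr), a carrier of thyroid hormone and retinol, is a product of the choroid plexus. In the habenula, astrocytic clearance of glutamate is known to bear on the firing of lateral habenula neurons.

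In the GENCODE M21 annotation of GRCm38, Slc1a2 spanned chr2:102658659-102790784 on the plus strand, Slc1a3 chr15:8634124-8710764 on the minus strand and Glul chr1:153899944-153909723 on the plus strand. Gja1 lay at chr10:56377330-56402513 (plus), Sparcl1 at chr5:104079111-104113733 (minus), Apoe at chr7:19696109-19699188 (minus), Clu at chr14:65968483-65981547 (plus) and Ptgds at chr2:25466709-25470046 (minus). Antisense genes overlapped Slc1a2 (Gm13872), Aqp4 (AC133525.2) and Sparcl1 (Gm26703), Teddm2 overlapped Glul from the other strand, and Mir8114 and Gm37310 lay within Glul and Slc1a3 on the same strand. As the sources used here do not give the strand of counting, reads of these 5 genes could not be told from those of their partners.

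Slc1a3 and Gja1 were the pair of members whose levels were most alike across the 15 series plates (Pearson's r = 0.902 on log2(CPM + 1), a description over plates that share their cells between both genes). The 250 bases before the RefSeq start of each are shown because both levels moved together. They are from RefSeq on GRCm38.p6, where 6 of the 10 members had an entry that could be used. Capitals mark TATAAA on either strand.
Slc1a3, chr15:8710808-8711057, minus strand: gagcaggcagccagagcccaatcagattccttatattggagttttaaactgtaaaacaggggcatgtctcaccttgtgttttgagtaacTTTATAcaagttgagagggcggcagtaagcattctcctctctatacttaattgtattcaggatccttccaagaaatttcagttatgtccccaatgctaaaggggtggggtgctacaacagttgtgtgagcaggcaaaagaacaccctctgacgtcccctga
Gja1, chr10:56377050-56377299, plus strand: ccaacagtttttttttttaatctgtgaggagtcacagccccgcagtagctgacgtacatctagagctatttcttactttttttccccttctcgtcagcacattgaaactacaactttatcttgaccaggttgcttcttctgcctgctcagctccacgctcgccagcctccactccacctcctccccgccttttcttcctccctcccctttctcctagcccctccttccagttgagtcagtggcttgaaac
The Slc1a3 window held 1 TATAAA (read here as its reverse complement) and 1 GGGCGG, and the Gja1 window held neither. TTGGC and ACAAAG, also sought on both strands, were in neither window, and no searched motif overlapped another there. Over all 32851 promoters of the table, 12.4% held TATAAA, 32.7% GGGCGG, 41.5% TTGGC and 16.5% ACAAAG. The Slc1a3 window was 44.8% G and C with 2 CpG pairs and the Gja1 window 50% with 6, against medians of 52.4% and 6 over all promoters.

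Of 5756 series wells, 3729 were kept, and of 1920 wells of the E18 set, 1082. Kept wells had medians of 5058 to 23108 counts per series plate and 17113 to 29096 per plate of the E18 set. Pou4f1 was seen in 28.1 to 92.2% of the wells of a series plate and in 46.2 to 81.0% of those of an E18-set plate. Plates of a stage differed in the cells they held. At E18, plate 1 was 28.1% Pou4f1-positive and plate 2 was 85.5%, and the summed CPM of the radial glia or progenitor list was 3753 on plate 1 and 222 on plate 2. Adult plate 1 kept 56 wells and had a median of 11.9% mitochondrial counts. The labels do not say which plates were run together on the sequencer, and stage therefore cannot be told apart from a sequencing batch.

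The uptake and gap junction genes did not follow one course over development. Over all kept wells, Slc1a2 was already high at E11, fell to its lowest levels at P4 and P7 and was high again in the adult. In Pou4f1-positive wells alone, the adult plates stood at 59.4 and 23.9 CPM, below every embryonic plate. In the series, Slc1a3, Gja1 and Sparcl1 were low at E15 and rose to E18, and Glul rose in the adult. At E18, Gja1, Sparcl1 and Ptgds were lower on all 5 C57BL/6 plates than on both series plates. Slc1a3 stood above both E15 plates there. Strain and set differ, and this difference at E18 was not tested. Levels are given in CPM, the counts of a gene over all kept wells of a plate scaled to a total of 1000000. In such sums, fewer cells of a type and less RNA per cell cannot be told apart.

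**Figure D1:**
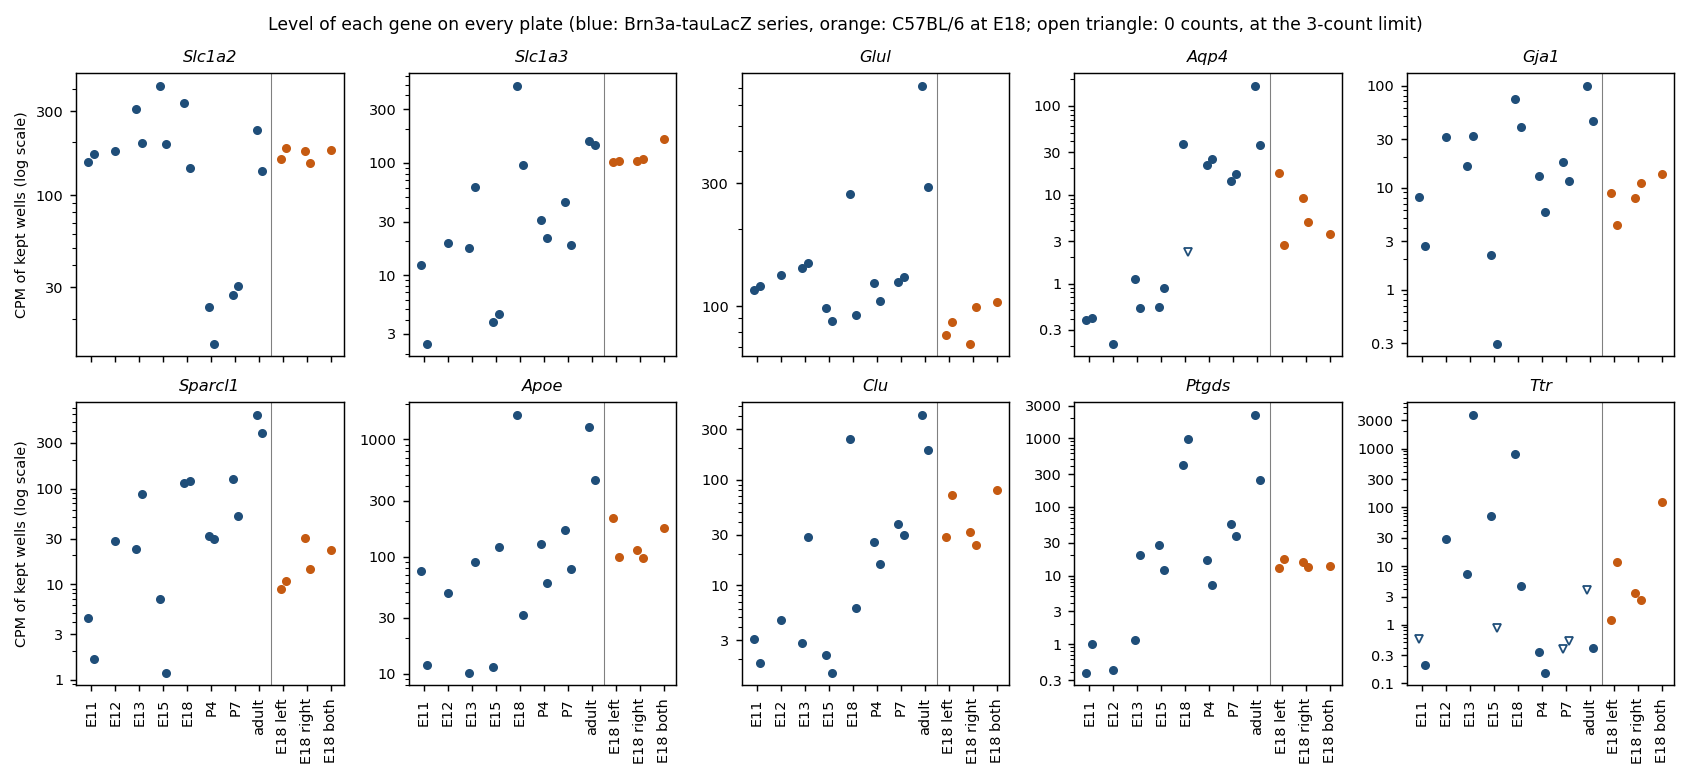
Level of each of the 10 genes (CPM, log axis) on each plate, by stage in the series and by side in the E18 C57BL/6 set. Every point is 1 plate. A plate with no count of a gene is an open triangle at the highest CPM that an absence of counts allows. Slc1a2 dips at P4 and P7 to between 14.4 and 30.6 CPM, and Aqp4 lies at or below 1.14 CPM on every plate from E11 to E15.

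Slc1a2 stood at 154 and 171 CPM for E11, 178 for E12, 307 and 198 for E13, 416 and 194 for E15, and 334 and 142 for E18. It stood at 23.2 and 14.4 CPM for P4, 27.1 and 30.6 for P7, and 235 and 138 for the adult plates. The 4 plates of P4 and P7 lay below every other plate, adult plate 1 lay within the embryonic range, and adult plate 2 lay just under its lowest plate, 142 CPM. From E18 to P4 the log2 fold change was -3.42 ± 0.48 (SE; 2 plates against 2, edgeR, adjusted p = 0.00183), from P4 to adult it was 3.17 ± 0.48 (edgeR, adjusted p = 0.00381) and from P7 to adult 2.57 ± 0.46 (edgeR, adjusted p = 0.0175). The fall passed under all 22 alternative settings. The rise from P7 was lost without P7 plate 1, P7 plate 2 or adult plate 1 (edgeR, adjusted p = 0.176, 0.181 and 0.0985), and that from P4 without P4 plate 2 (edgeR, adjusted p = 0.0605). In order of mean level the stages ran E15, E13, E18, adult, E12, E11, P7 and P4. Of the steps between neighbours in time, E11 to E13, E13 to E15, E15 to E18 and P4 to P7 did not pass.

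Slc1a3 stood at 12.4 and 2.45 CPM for E11, 19.4 for E12, 17.6 and 60.6 for E13, and 3.80 and 4.46 for E15. It stood at 484 and 96.7 CPM for E18, 31.3 and 21.5 for P4, 44.6 and 18.7 for P7, and 156 and 144 for the adult plates. E18 plate 1 was the highest of all, and both E18 plates and both adult plates exceeded every plate of E11 to E15, P4 and P7. The rise from E15 to E18 was 5.92 ± 0.97 on the log2 scale (2 plates against 2, edgeR, adjusted p = 0.0413) and the fall from E18 to P4 was -3.20 ± 0.78 (edgeR, adjusted p = 0.0179). The rise passed in 10 of 22 alternatives and was lost when any of 9 single plates was left out, from E15, E18 plate 1, P4, P7 and the adult (edgeR, adjusted p = 0.0549 to 0.256). The fall was lost without E18 plate 1, P4 plate 1 or P4 plate 2 (edgeR, adjusted p = 0.134, 0.0963 and 0.145). The later rise from P4 to adult was 2.37 ± 0.76 (edgeR, adjusted p = 0.0727) and did not pass.

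Glul stood at 116 and 119.5 CPM for E11, 132 for E12, 140.3 and 148 for E13, 98.8 and 88.3 for E15, and 273 and 92.7 for E18. It stood at 123 and 105 CPM for P4, 125 and 129.9 for P7, and 712 and 289 for the adult plates. The adult plates were the highest of the series, and E18 plate 1 stood apart from the other embryonic plates. Its change was 2.00 ± 0.44 from P4 to adult (2 plates against 2, edgeR, adjusted p = 0.0185) and 1.85 ± 0.44 from P7 to adult (edgeR, adjusted p = 0.0426). The first was lost without adult plate 1, P4 plate 1 or P4 plate 2 (edgeR, adjusted p = 0.118, 0.121 and 0.153). The second passed in 10 of 22 alternatives and was lost when any of 11 single plates was left out, those of E11, E13, E15, P4 and P7 and adult plate 1 (edgeR, adjusted p = 0.0519 to 0.275).

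Aqp4, the endfoot water channel, was at or near 0 before E18. Its levels ran from 0.211 to 1.14 CPM on the 7 plates of E11 to E15, where the limit that a count of 0 allows was 0.579 to 1.70 CPM. It then stood at 37.6 and 0 CPM at E18 (E18 plate 2 allows up to 2.26), 21.4 and 25.4 for P4, 14.3 and 17.1 for P7, and 167 and 36.1 for the adult plates. On adult plate 1 a single well of 56 held 62.9% of the Aqp4 counts. All 6 postnatal plates exceeded all 7 plates of E11 to E15, while the 2 E18 plates fell on either side. Over all 15 plates its level rose by 1.19 ± 0.17 on the log2 scale per stage step, with stages numbered in order from E11 to adult (edgeR, adjusted p = 0.000123), and this passed under all 24 alternatives.

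Gja1, the connexin of astrocyte gap junctions, stood at 8.12 and 2.66 CPM for E11, 31.8 for E12, 16.5 and 31.9 for E13, and 2.17 and 0.297 for E15. It stood at 74.2 and 39.2 CPM for E18, 13.1 and 5.83 for P4, 17.7 and 11.6 for P7, and 99.0 and 44.6 for the adult plates. The 2 adult plates and the 2 E18 plates were the 4 highest of the series. On the C57BL/6 plates at E18, Gja1 stood at 0.623 to 5.51 CPM in wells with a Pou4f1 UMI. In those without, it stood at 22.3 to 53.1 CPM. Gja1 rose by 5.63 ± 0.87 from E15 to E18 (2 plates against 2, edgeR, adjusted p = 0.0349), fell by 2.37 ± 0.61 from E18 to P4 (edgeR, adjusted p = 0.0232) and rose by 2.75 ± 0.63 from P4 to adult (edgeR, adjusted p = 0.0213). The first was lost without any of 7 plates, those of E15, P4, P7 and E18 plate 1 (edgeR, adjusted p = 0.0632 to 0.177). The fall was lost without E18 plate 1 or either P4 plate (edgeR, adjusted p = 0.0653 to 0.180), and the later rise without either P4 plate or adult plate 1 (edgeR, adjusted p = 0.0821 to 0.187).

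Among the secreted genes, Sparcl1 rose in 3 stage comparisons. It stood at 4.44 and 1.63 CPM for E11, 28.5 for E12, 23.3 and 87.2 for E13, and 7.06 and 1.19 for E15. It stood at 115 and 120.2 CPM for E18, 31.6 and 29.8 for P4, 125 and 51.7 for P7, and 586 and 384 for the adult plates. The adult plates were the highest, with no overlap with any other stage. The gene rose by 4.0 ± 0.75 from E11 to E13 (2 plates against 2, edgeR, adjusted p = 0.0282), by 4.92 ± 0.81 from E15 to E18 (edgeR, adjusted p = 0.0414) and by 3.85 ± 0.66 from P4 to adult (edgeR, adjusted p = 0.00664). The first was lost without either E11 plate, E13 plate 2 or either P4 plate (edgeR, adjusted p = 0.0545 to 0.302), the second passed in 8 of 22 alternatives and was lost without any of 11 single plates (edgeR, adjusted p = 0.0549 to 0.182), and the third was lost without either P4 plate (edgeR, adjusted p = 0.0799 and 0.0869). Its rise per stage step was 0.72 ± 0.16 (15 plates, edgeR, adjusted p = 0.00261), which was lost without both adult plates (edgeR, adjusted p = 0.0969).

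Apoe, the lipid carrier, differed widely between plates of one stage. It stood at 75.6 and 11.9 CPM for E11, 49.3 for E12, 10.2 and 90.4 for E13, 11.4 and 119.6 for E15, and 1616 and 31.7 for E18. It stood at 127 and 59.3 CPM for P4, 169 and 78.3 for P7, and 1281 and 453 for the adult plates. The highest plate was E18 plate 1 and the other E18 plate was below both plates of P4. No pair of neighbouring stages passed the test, and the rise per stage step of 0.59 ± 0.22 (15 plates, edgeR, adjusted p = 0.0415) passed in 14 of 24 alternatives and was lost without any of 8 single plates, 5 of them from E11 to E13, with E15 plate 2 and both adult plates (edgeR, adjusted p = 0.0521 to 0.154).

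Clu, the chaperone, stood between 1.49 and 4.63 CPM on the plates of E11 to E15 except E13 plate 2 with 28.7. It stood at 244 and 6.03 CPM for E18, 25.8 and 16.0 for P4, 38.2 and 29.9 for P7, and 411 and 191 for the adult plates, with 43.7% of the Clu counts of adult plate 1 in a single well. The adult plates did not overlap P4 or P7, and of the E18 plates plate 1 exceeded every plate but adult plate 1 while the other lay below every postnatal plate. The rise per stage step was 0.87 ± 0.20 (15 plates, edgeR, adjusted p = 0.00325), which was lost without both adult plates (edgeR, adjusted p = 0.0816), and the difference from P4 to adult, 3.71 ± 1.08, did not pass (edgeR, adjusted p = 0.0503).

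Ptgds, the prostaglandin D synthase, stood at 0.386 and 1.02 CPM for E11, 0.421 for E12, 1.14 and 20.2 for E13, 27.7 and 12.2 for E15, and 404 and 965 for E18. It stood at 16.6 and 7.21 CPM for P4, 55.6 and 37.5 for P7, and 2175 and 249 for the adult plates. The E18 and adult plates were above all others and overlapped each other. A single well held 45.1% of the Ptgds counts on series E18 plate 1 and 44.7% on series E18 plate 2. In the series, Ptgds fell by 5.67 ± 1.13 from E18 to P4 (2 plates against 2, edgeR, adjusted p = 0.00776). It rose by 6.55 ± 1.18 from P4 to adult (edgeR, adjusted p = 0.00819) and by 4.58 ± 1.06 from P7 to adult (edgeR, adjusted p = 0.0416). The fall and the rise from P4 were each lost without either P4 plate (edgeR, adjusted p = 0.0549 to 0.103). The rise from P7 was lost without any of 8 single plates, from E11, E15, P4, P7 and adult plate 1 (edgeR, adjusted p = 0.0528 to 0.306).

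Ttr, the carrier made by choroid plexus, was a gene of single plates. It stood at 3706 CPM on E13 plate 2 and 802 on E18 plate 1, with 70.8 on E15 plate 1, 29.0 for E12, 7.39 on E13 plate 1 and 4.52 on E18 plate 2. E11 plate 1, E15 plate 2, both P7 plates and adult plate 1 had no count, and the other 4 plates had at most 0.398 CPM. No stage comparison of Ttr passed the test. On E13 plate 2 the well with most Ttr held 26.9% of the gene's counts and 8 wells gave it 1% or more of their counts, while on E18 plate 1 a single well held 52.3% of them.

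The counts of members past the threshold were set against all genes tested. From E11 to E13, 1 of 10 members passed, higher, against 1.45% of all genes and 0.854% higher, and from E15 to E18, 3 of 10, all higher, against 0.195% and 0.16% higher. From E18 to P4, 4 of 10 passed, all lower, against 19.6% of all genes and 10.4% lower. From P7 to adult 3 of 10 passed, all higher, against 3.58% and 1.76% higher, and from P4 to adult 5 of 10, all higher, against 10.4% and 4.94% higher. None passed from E13 to E15 (edgeR), against 0.0917% of all genes, or from P4 to P7 (edgeR), against 0.00573%. At an unadjusted p under 0.05 (edgeR) there were 4 of 10 members and 2183 of 17453 genes from E13 to E15. From P4 to P7 there were 1 of 10 and 475 of 17453. With DESeq2, 3 and 0 members passed in these 2 steps, and its share of all genes is not given here. All these stage comparisons share plates with their neighbours, so their counts are not independent of each other. Median log2 changes of the members were 4.69 from E15 to E18, -2.61 from E18 to P4 and 2.92 from P4 to adult, where the medians of all genes were 0.06, -0.07 and 0.00.

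The astrocyte marker list, which holds none of the members, also differed between stages. Its summed level was 39.4 to 361 CPM on the plates of E11 to E15, 1216 and 159 for E18, 288 to 458 for P4 and P7, and 1902 and 1236 for the adult plates. Among other lists, the meninges list reached 2018 CPM on E18 plate 2, the microglia list 546 on E18 plate 1, and the oligodendrocyte list 10428 and 2412 on the adult plates against at most 159 elsewhere. The part of these cells in the stage differences was not tested.

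How many wells showed a gene depends on depth, so each well was also thinned to 2000 UMIs. Slc1a2 was seen in 51.8 to 85.6% of wells on the embryonic plates and 14.3 to 21.8% on those of P4 and P7. After thinning these were 20.3 to 47.5% and 1.27 to 8.16%, so the ranges stayed apart. Before thinning, Glul was seen in 51.8 to 83.9% of wells of every series plate. Slc1a3 was in 0.685 to 6.98% of thinned wells from E11 to E15, in 28.0 and 7.48% on the E18 plates, in 1.06 to 4.32% at P4 and P7, and in 12.5 to 22.6% on the adult plates. Aqp4 was in at most 0.342% of thinned wells from E11 to E15, in 2.16 to 3.49% at P4 and P7 and in 6.12 to 10.0% in the adult. On plates where a transcript was very abundant it was seen nearly everywhere: Ttr in 96.4% of the wells of E13 plate 2 (70.5% thinned), Apoe in 91.8% of those of E18 plate 1 and Ptgds in 94.6% of those of adult plate 1. No share on those plates is read as a share of expressing cells.

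**Figure D2:**
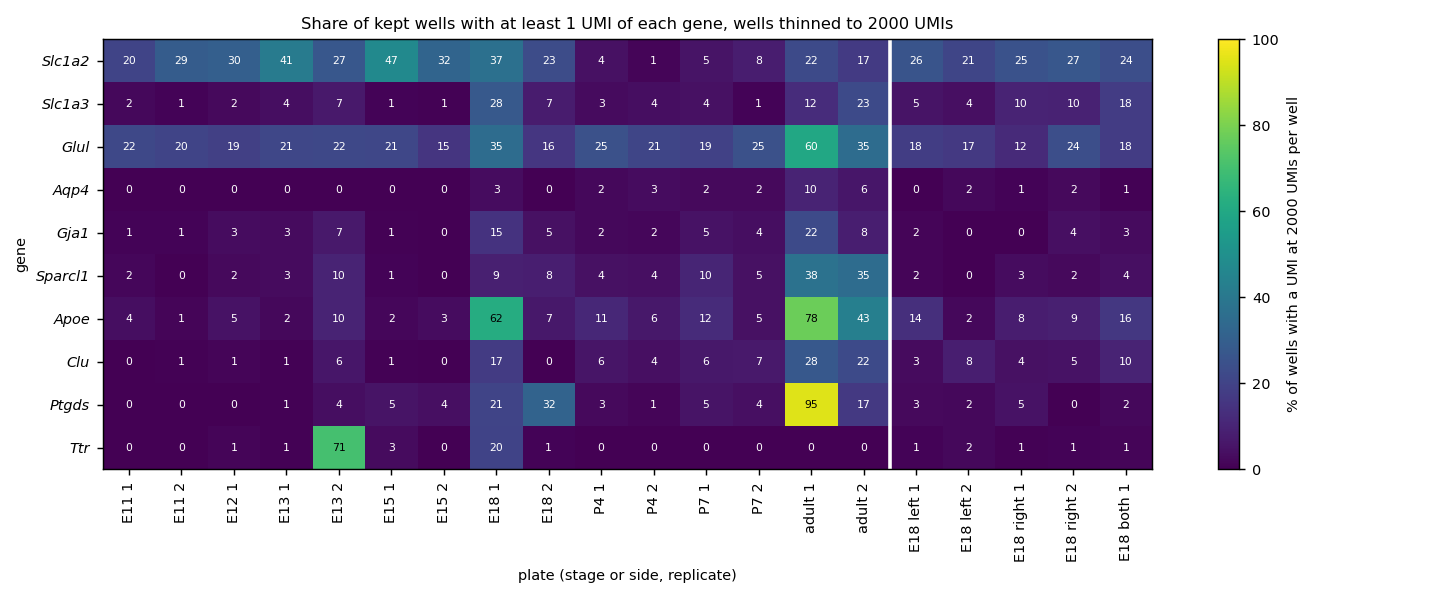
Percent of wells with at least 1 UMI of each gene after thinning to 2000 UMIs, by plate (columns) and gene (rows). Brighter cells mark higher shares. Slc1a2 is seen in 20.3 to 47.5% of wells on the embryonic series plates and in 1.27 to 8.16% at P4 and P7.

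Wells were then split into those with at least 1 Pou4f1 UMI and those with none, and both parts of a plate were compared within it. The series held 2933 positive and 796 negative wells. After birth, members were higher in negative wells: 9 of the 10 members were lower in positive wells on the 6 postnatal plates, where 42.6% of all genes passed and 18.9% were lower. On the 9 embryonic plates 7 of 10 were lower, against 19.6% of all genes and 9.81% lower. The median difference, positive minus negative on the log2 scale, was -3.85 for the members and 0.15 for all genes after birth, and -2.56 and 0.02 before it. The change from the embryonic to the postnatal difference passed for 4 of 10 members, all towards lower, against 11.3% of all genes and 6.36% lower. Positive wells were deeper on all 15 plates, with medians of 9086 to 23964 counts against 3098 to 11600.5.

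**Figure D3:**
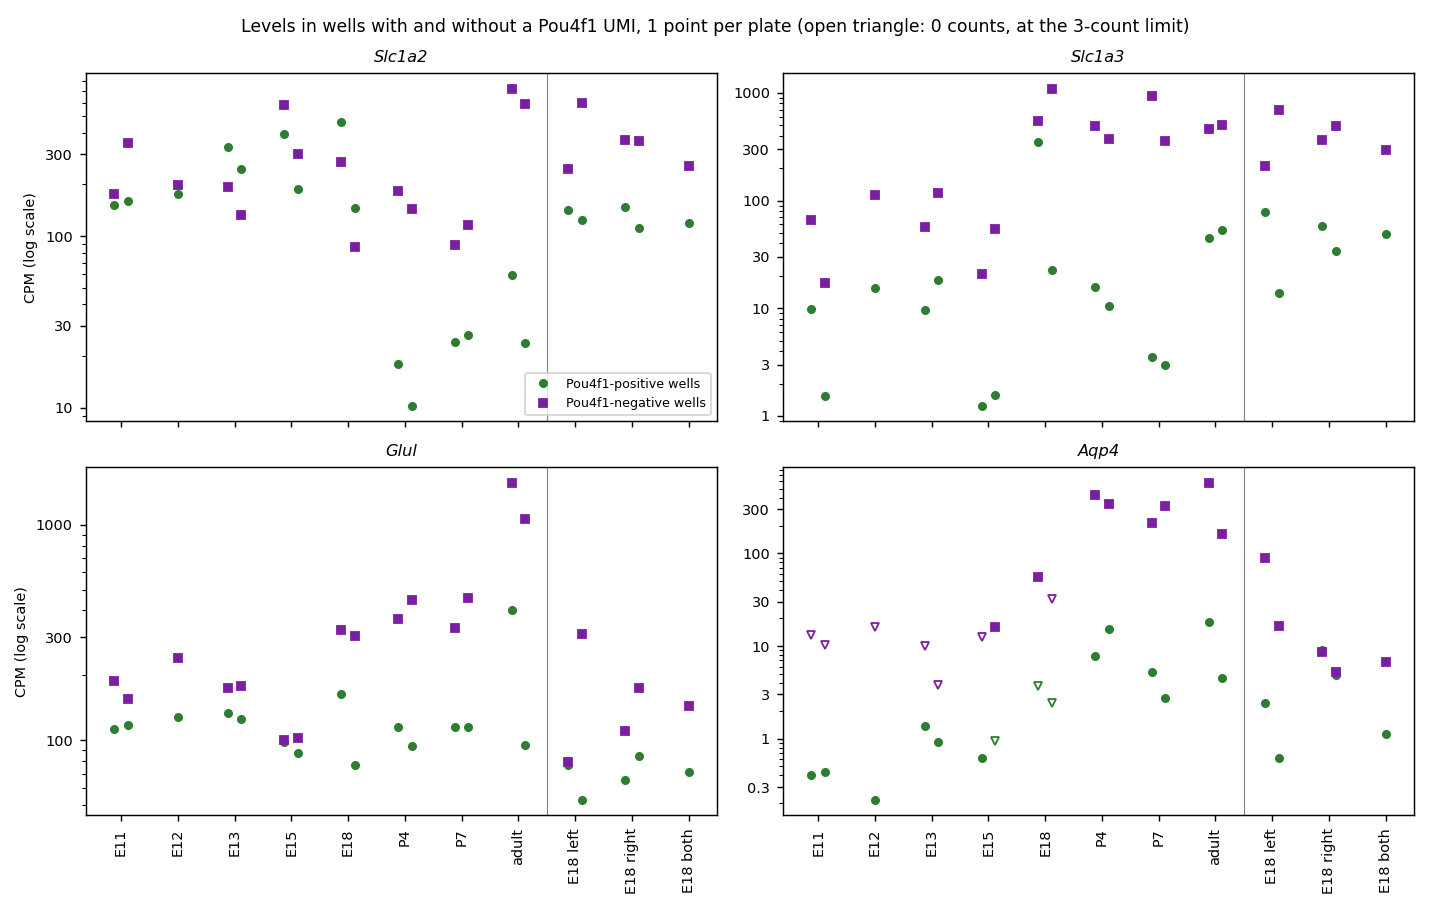
Levels (CPM, log axis) of Slc1a2, Slc1a3, Glul and Aqp4 in Pou4f1-positive and Pou4f1-negative wells of each plate, with a separate marker for each part. A part with no count of a gene is an open triangle at the highest CPM that an absence of counts allows. Slc1a2 in positive wells lies between 147 and 463 CPM on the embryonic series plates and between 10.3 and 59.4 CPM on the postnatal ones.

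Slc1a2 in Pou4f1-positive wells stood between 147 and 463 CPM on the 9 embryonic plates, with a median of 188. It stood at 17.9 and 10.3 CPM for P4, 24.3 and 26.7 for P7, and 59.4 and 23.9 for the adult plates. In negative wells it stood between 86.6 and 583 CPM on the embryonic plates, and at 183, 145, 88.7, 115, 719 and 591 after birth. The plate values of the positive wells did not overlap between embryonic and postnatal plates, while those of the negative wells did. Negative wells were higher on 5 of 9 embryonic plates and on 6 of 6 postnatal ones, there by 3.65 to 24.7 times. The difference between parts was 0.12 ± 0.26 before birth (9 plates, edgeR, adjusted p = 0.821) and -3.06 ± 0.35 after it (6 plates, edgeR, adjusted p = 9.43e-07). The change of that difference, -3.18 ± 0.43, passed (edgeR, adjusted p = 0.000117), under all 26 alternatives as well. Over stages, Slc1a2 fell by 0.47 ± 0.17 per step in positive wells (edgeR, adjusted p = 0.0386), a call lost without any of 6 plates, E13 plate 1, P4 plate 1 or any P7 or adult plate (edgeR, adjusted p = 0.0535 to 0.103). In negative wells the slope was 0.15 ± 0.09 (edgeR, adjusted p = 0.254).

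Slc1a3 was higher in negative wells on every series plate. On the embryonic plates it stood at 1.25 to 349.7 CPM in positive wells and 17.2 to 1085 in negative wells, and after birth at 2.94 to 53.1 and 359 to 945. The postnatal ranges did not overlap, with ratios of 9.50 to 270. The differences were -2.91 ± 0.54 (9 plates, edgeR, adjusted p = 0.00101) and -4.97 ± 0.59 (6 plates, edgeR, adjusted p = 1.31e-06). Their own difference, -2.06 ± 0.77, did not pass (edgeR, adjusted p = 0.0909).

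Glul was widespread in both parts. Positive wells held 77.0 to 164 CPM on embryonic plates and 94.0 to 403 after birth, where P4 gave 115 and 94.0, P7 115 on both plates, and the adult 403 and 94.6. Negative wells held 100.5 to 326 CPM before birth and 331 to 1560 after it, with 366 and 449 for P4, 331 and 458 for P7, and 1560 and 1060 for the adult plates. Negative wells were higher on all 15 plates, by 1.02 to 3.94 times before birth and 2.87 to 11.2 times after. The differences were -0.58 ± 0.20 (9 plates, edgeR, adjusted p = 0.0399) and -1.94 ± 0.23 (6 plates, edgeR, adjusted p = 1.65e-06), and the change between them was -1.36 ± 0.30 (edgeR, adjusted p = 0.0064), which did not pass with no plate term in the fit (edgeR, adjusted p = 0.117). The embryonic call passed in 16 of 26 alternatives and was lost without any of 6 single plates, those of E13, E18 and E12 and E11 plate 1 (edgeR, adjusted p = 0.0505 to 0.107).

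Aqp4 was too low for a comparison on most embryonic plates, with at most 1.37 CPM in positive wells. It was higher in positive wells on 6 of 9 embryonic plates and in negative wells on 2, opposite to the fitted direction on most. Negative wells had a count on E15 plate 2 (16.2 CPM) and E18 plate 1 (55.7 CPM) alone, and on E15 plate 2 this was 3 counts in a single well. The embryonic difference of -3.18 ± 0.91 (9 plates, edgeR, adjusted p = 0.0181) was lost without either of those plates (edgeR, adjusted p = 0.0504 and 0.535). After birth Aqp4 stood at 2.76 to 18.0 CPM in positive wells and 162 to 577 in negative wells, with no overlap and ratios of 22.0 to 118. The difference was -5.18 ± 0.40 (6 plates, edgeR, adjusted p = 2.79e-08). Thinned shares ran from 0 to 1.37% of positive wells and from 12.8 to 29.2% of negative wells.

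Gja1 was also lower in positive wells at both ages. After birth it stood at 1.47 to 14.4 CPM in positive and 94.7 to 331 in negative wells, 23.0 to 157 times higher on 6 of 6 plates. Before birth negative wells were higher on 8 of 9 plates, among them E18 plate 2 with 531 CPM against 2.43. The differences were -2.65 ± 0.49 (9 plates, edgeR, adjusted p = 0.000993) and -5.33 ± 0.51 (6 plates, edgeR, adjusted p = 1.42e-07), and the change between them was -2.68 ± 0.69 (edgeR, adjusted p = 0.0158). That change did not pass on wells thinned to 2000 UMIs or with no plate term in the fit (edgeR, adjusted p = 0.201 for the latter).

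**Figure D4:**
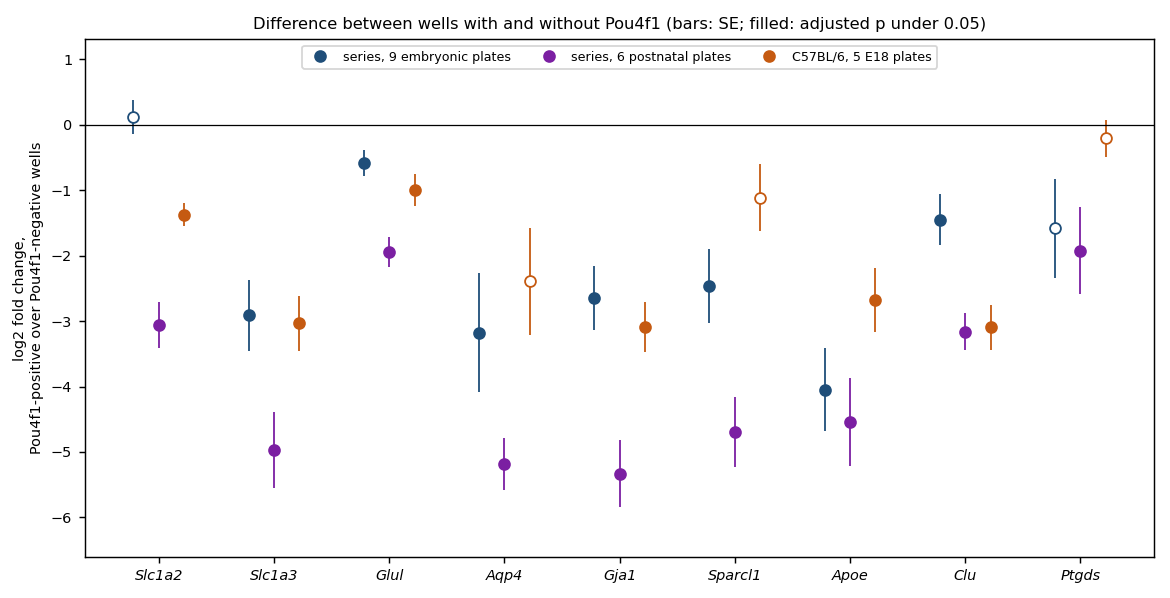
Difference between Pou4f1-positive and Pou4f1-negative wells (log2, positive minus negative, with SE) for 9 genes on the embryonic series plates, the postnatal series plates and the E18 C57BL/6 plates, from edgeR fits with the plate as a block. Slc1a2 lies at 0.12 on the embryonic and at -3.06 on the postnatal series plates.

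Of the secreted genes, Apoe was split at every age. Negative wells were higher on 9 of 9 embryonic plates, by 1.34 to 151 times, and on 6 of 6 postnatal ones, by 6.30 to 91.6 times. After birth positive wells held 15.6 to 530.4 CPM and negative wells 1020.5 to 3341, with no overlap. Its differences were -4.05 ± 0.63 (9 plates, edgeR, adjusted p = 0.0003) and -4.54 ± 0.67 (6 plates, edgeR, adjusted p = 1.5e-05), and the change of -0.50 ± 0.87 did not pass (edgeR, adjusted p = 0.779).

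Sparcl1 and Clu were lower in positive wells at both ages in the fit. Before birth each was so on 7 of 9 plates, and on the other 2 its negative wells held no count (E11 plate 2 and E15 plate 2 for Sparcl1, E11 plate 2 and E18 plate 2 for Clu). Sparcl1 after birth stood at 16.0 to 160.3 CPM in positive and 449.8 to 2119.7 in negative wells, and the differences were -2.47 ± 0.57 before birth (9 plates, edgeR, adjusted p = 0.00452) and -4.69 ± 0.54 after it (6 plates, edgeR, adjusted p = 9.7e-07). Clu after birth stood at 12.0 to 128 CPM and 139.6 to 1188, and its differences were -1.45 ± 0.39 (edgeR, adjusted p = 0.0119) and -3.16 ± 0.28 (edgeR, adjusted p = 6.58e-08). The postnatal ranges of both parts did not overlap for either gene. The change for Clu was -1.71 ± 0.46 (edgeR, adjusted p = 0.0206) and for Sparcl1 -2.23 ± 0.74 (edgeR, adjusted p = 0.0574). Without E18 plate 1 the embryonic call of Clu was lost (edgeR, adjusted p = 0.0935), and its change was lost without E13 plate 2 (edgeR, adjusted p = 0.0706), on wells thinned to 2000 UMIs (edgeR, adjusted p = 0.162) and with no plate term (edgeR, adjusted p = 0.749).

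Ptgds and Ttr were split unevenly across plates. Ptgds was higher in negative wells on 5 of 9 embryonic and 4 of 6 postnatal plates. Its highest values in negative wells were 11150.3 CPM on E18 plate 2, against 203 in positive wells, and 4800.1 and 1001 for the adult plates, against 1219 and 60.2. The postnatal difference of -1.92 ± 0.66 (6 plates, edgeR, adjusted p = 0.0236) was lost without P7 plate 1 or adult plate 2 (edgeR, adjusted p = 0.103 and 0.107). Ttr stood at 2351 CPM in positive and 5573 in negative wells of E13 plate 2, and at 1377 and 524 in those of E18 plate 1, and its embryonic difference of -2.96 ± 1.07 did not pass (edgeR, adjusted p = 0.0636).

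Markers of the cell types that a Pou4f1-negative well could hold moved with the split, so the members were not alone. In negative wells of the postnatal plates the astrocyte list summed to 1407 to 4349 CPM, against 252 to 1010 in positive wells, and the habenula neuron list to 887 to 2917 against 4159 to 7235. Of genes tested, 9 of 9 astrocyte, 9 of 9 meninges, 6 of 7 microglia, 4 of 4 oligodendrocyte and 5 of 5 endothelium markers were lower in postnatal positive wells, while 9 of 10 neuron and 10 of 10 habenula neuron markers were higher. The habenula list holds Pou4f1 itself, which made the split. On the embryonic plates 3 of 9 astrocyte and 6 of 8 radial glia markers were lower in positive wells and 10 of 10 neuron markers higher. The part of each cell type in the split was not tested.

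Along the stages, 6 of 10 members rose over all wells, against 38.3% of all genes past the threshold and 20% higher. Without both adult plates, an alternative added after the data were seen, Aqp4 alone of the 10 passed. The share of all genes in that fit is not given here, so its count is not read as particular to the members. With all plates in the fit, 5 rose and 1 fell of 10 in positive wells, against 42.4%, with 22.9% higher and 19.5% lower. In negative wells 6 rose of 9 tested, against 31.2% and 17.6% higher. Those 6 were Slc1a3 (0.63 ± 0.15 per step), Glul (0.42 ± 0.07), Aqp4 (1.55 ± 0.21), Gja1 (0.52 ± 0.14), Sparcl1 (1.00 ± 0.17) and Clu (1.03 ± 0.15), with adjusted p from 8.66e-05 to 0.00915 (edgeR), and each passed under all 22 alternatives. Among these, the stricter Pou4f1 minimum left the negative wells unchanged and so only repeated the reported fit. In positive wells the slopes that passed were those of Aqp4 (0.79 ± 0.18; edgeR, adjusted p = 0.00278), Clu (0.69 ± 0.15; edgeR, adjusted p = 0.00193) and Ptgds (1.20 ± 0.24; edgeR, adjusted p = 0.00114), and, in 10 and 8 of 22 alternatives, Sparcl1 (0.43 ± 0.16; edgeR, adjusted p = 0.0432) and Apoe (0.55 ± 0.21; edgeR, adjusted p = 0.049). Sparcl1 was lost there without any of 10 single plates (edgeR, adjusted p = 0.0512 to 0.191) and Apoe without any of 13 (edgeR, adjusted p = 0.0507 to 0.228). Without adult plate 1, Ptgds lost both its rise in positive wells (edgeR, adjusted p = 0.0508) and that over all wells (1.41 ± 0.39 with all plates; edgeR, adjusted p = 0.0103 with and 0.0764 without). Glul over all wells rose by 0.22 ± 0.07 (edgeR, adjusted p = 0.0206), which was lost without adult plate 1 (edgeR, adjusted p = 0.166).

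Which wells held the counts was read from the marker lists: wells with at least 3 genes of a list were taken, by a rule chosen after the data were seen, and a well could belong to several lists. Before birth, most counts of Slc1a2 and Glul lay outside wells with astrocyte markers on every embryonic series plate but E18 plate 1. The radial glia-list wells held 22.9 to 88.4% of Slc1a2 and 11.4 to 93.9% of Glul on the 9 embryonic plates, where they held 12.0 to 89.9% of all counts. At E11, E12 and E15 and on E13 plate 1, at most 1.76% of Slc1a2 counts and at most 4.45% of Glul counts lay in astrocyte-list wells. The share of all counts in astrocyte-list wells is not given for these plates, so this sets neither gene apart. On adult plates 1 and 2, 98.3% and 95.1% of Slc1a2 counts lay in such wells, which held 91.3% and 56.3% of all counts. At P4 the shares of Slc1a2 were 31.4% and 56.4% in wells holding 6.32% and 5.76% of all counts, and those of Glul 11.2% and 17.1%. Slc1a3 on the P4 and P7 plates had 63.8 to 91.5% of its counts there. From E11 to E13 the radial glia-list wells held 74.2 to 99.1% of Slc1a3 counts on the plates E11 plate 1, E12 and both of E13, and 29.5 to 75.3% of all counts, with the highest of both on E13 plate 2.

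Apoe counts of the early plates were spread unevenly. On E11 plate 1, 5 microglia-list wells with 1.03% of all counts held 85.7% of Apoe, and on E15 plate 2, 2 wells with 0.672% held 89.1%. Such wells held 65.6% of Apoe on E11 plate 2, 53.4% at E12 and 26.0% on E13 plate 2, and E13 plate 1 and E15 plate 1 had no such well. A single well held 52.9% of Apoe at E12 and 60.1% on E15 plate 2. On E18 plate 1 the 21 microglia-list wells, with 9.02% of all counts, held 34.9% of Apoe, and the 123 astrocyte-list wells, with 53.0%, held 66.1%. On adult plate 2 the astrocyte-list wells held 79.1% of Apoe and 56.3% of all counts, while on adult plate 1 they held 92.2% of Apoe and 91.3% of all counts and so did not set it apart. Ptgds lay in meninges-list wells on E18 plates 1 and 2, with 61.8% in 16 wells holding 5.97% of all counts and 83.8% in 21 wells holding 21.7%, and single wells held 45.1% and 44.7% of it. On adult plate 2, 156 oligodendrocyte-list wells held 88.8% of Ptgds and 61.1% of all counts, while on adult plate 1 such wells took in nearly the whole plate (98.9% of Ptgds and 98.8% of all counts) and showed no location. Ttr lay in choroid-list wells, with 88.3% in 23 wells holding 19.4% of all counts on E13 plate 2 and 89.2% in 35 wells holding 15.4% on E18 plate 1, but 5.37% on E15 plate 1. Gja1 on E18 plate 2 had 98.1% of its counts in the 21 meninges-list wells, and on adult plate 2 it had 96.0% in the astrocyte-list wells, which held 56.3% of all counts.

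**Figure D5:**
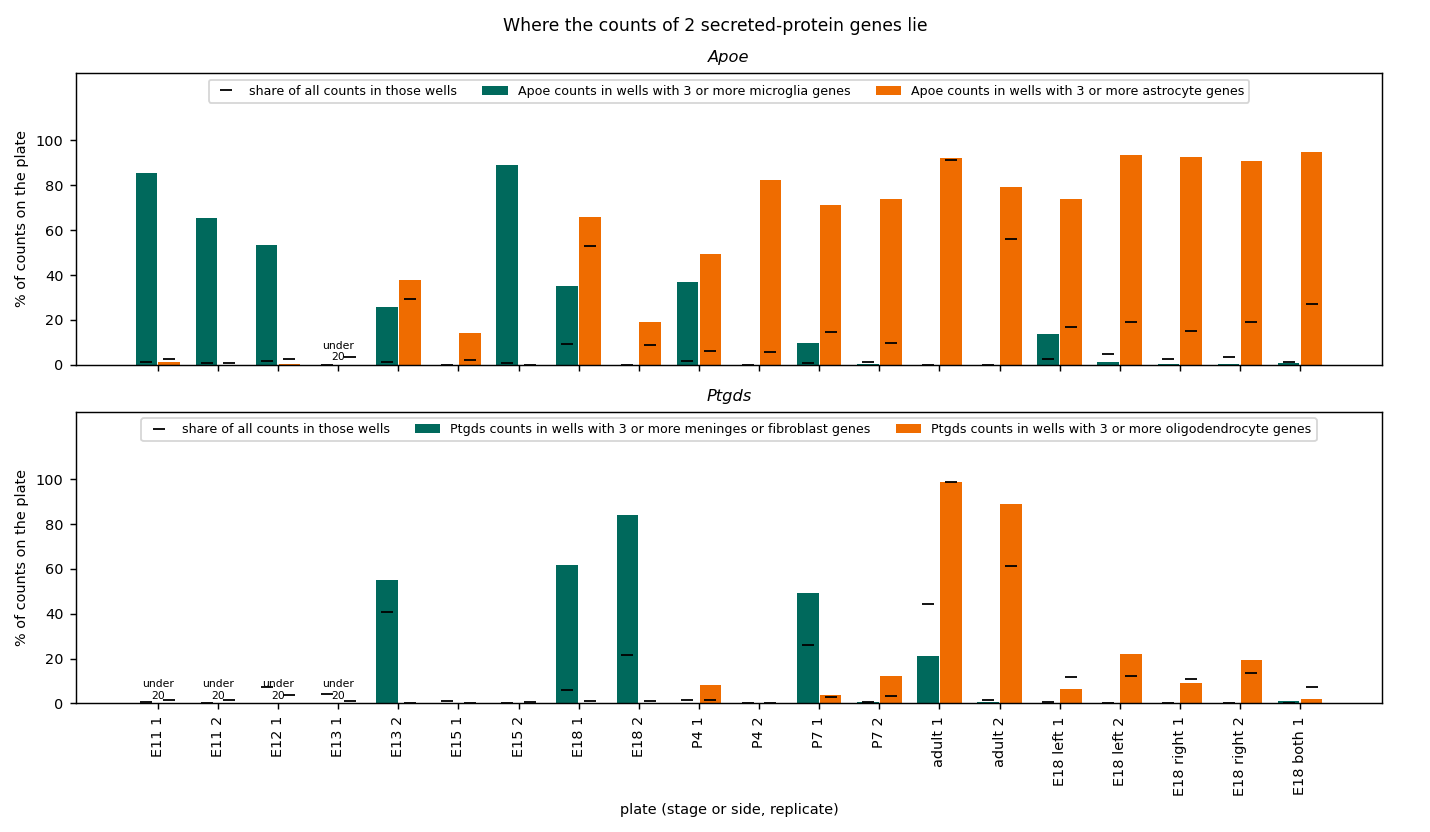
Percent of the counts of Apoe and of Ptgds on each plate that lay in wells with at least 3 genes of a marker list, where a well can count under several lists. Apoe lies mostly in microglia-list wells on E11 plate 1 (85.7%, in wells with 1.03% of all counts), and Ptgds in meninges-list wells on E18 plate 2 (83.8%, in wells with 21.7%).

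Members were also counted together within wells. Of thinned wells with Slc1a2, 3.93% also had Slc1a3 on the embryonic plates and 39.7% on the postnatal ones, against 6.55% and 4.71% of wells without Slc1a2. For Sparcl1 these were 1.57% and 54.5%, against 3.82% and 9.41%, and for Apoe 11.5% and 58.7%, against 11.1% and 14.2%. They rest on 636 embryonic and 121 postnatal wells with Slc1a2, pooled over plates and given as a description. On the C57BL/6 plates at E18, with 262 such wells, Slc1a3 was in 19.8% of wells with Slc1a2 against 7.83% of those without, Apoe in 17.9% against 9.76% and Sparcl1 in 1.15% against 3.34%. Wells with 5 or more of the 9 members other than Ttr numbered 37 of 327 thinned wells on adult plate 2 (11.3%). On adult plate 1 they numbered 11 of 40 (27.5%). Of these, 1 and 3 had Pou4f1. There were 11 of 324 and 4 of 282 on the P7 plates (2 and 0 with Pou4f1). The P4 plates had 8 of 278 and 5 of 315 (1 and 2), and the E18 plates 25 of 261 and 4 of 107 (2 and 0). On the plates of E11 to E15 there was 1, at E12, and it had Pou4f1. On the C57BL/6 plates there were 1 to 9 such wells, of which 3 of 6 and 0 of 1 on the left, 2 of 4 and 2 of 3 on the right, and 0 of 9 on the plate of both sides had Pou4f1.

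The split was also taken on the C57BL/6 plates at E18, and for Slc1a2 its direction was opposite to that of both series plates of that stage. Those had 463 and 147 CPM of Slc1a2 in positive and 272 and 86.6 in negative wells. The negative part of series plate 2 was only 16 wells, with a median of 3512 counts, so its direction there is uncertain. On the C57BL/6 plates Slc1a2 in positive wells stood at 143 and 124 CPM on the left plates, 147 and 112 on the right, with 119.5 for both sides together. In negative wells it stood at 247, 598, 365, 358 and 255 CPM in the same order. The summed negative wells of each of the 5 plates lay above the summed positive wells of all 5, with a difference of -1.38 ± 0.18 (5 plates, edgeR, adjusted p = 0.000405). Of 9 members tested, 6 were lower in positive wells, against 17.5% of all genes and 10.8% lower: Slc1a2, Slc1a3 (-3.04 ± 0.42), Glul (-1.0 ± 0.24), Gja1 (-3.09 ± 0.38), Apoe (-2.68 ± 0.49) and Clu (-3.10 ± 0.34), with adjusted p from 0.000204 to 0.0157 (edgeR). Glul was lost without right plate 2 or the plate of both sides (edgeR, adjusted p = 0.0512 and 0.069). Aqp4 (-2.39 ± 0.81; edgeR, adjusted p = 0.0693; higher in negative wells on 4 of 5 plates), Sparcl1 (-1.12 ± 0.51; edgeR, adjusted p = 0.175) and Ptgds (-0.21 ± 0.28; edgeR, adjusted p = 0.692) did not pass. On left plate 2, which kept 54 wells, a single well held 92.4% of Apoe and 84.0% of Clu, and on left plate 1 a single well held 80.7% of Aqp4. The strain and set differ from the series, and the differences were not compared by a test.

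Between the sides no member passed (2 plates against 2, edgeR, 0 with DESeq2), where 0.00541% of all genes did with edgeR. At an unadjusted p under 0.05 (edgeR) there were 2 of 10 members and 283 of 18489 genes. Slc1a2 stood at 161 and 187 CPM on the left and 179 and 152 on the right, and Glul at 77.4 and 87.3 against 71.9 and 99.2, so both overlapped. Sparcl1 stood at 8.79 and 10.8 CPM on the left and 30.3 and 14.4 on the right, with no overlap and a log2 difference of 1.24 ± 0.39 (edgeR, adjusted p = 1). Clu stood at 28.4 and 71.1 CPM on the left against 31.9 and 24.2, with overlap (-0.74 ± 0.34; edgeR, adjusted p = 1). The erythroid list summed to 19048 and 17219 CPM on the left plates, to 3410.1 and 265 on the right, and to 26.0 on the plate of both sides.

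The levels of members over the 15 plates were compared in pairs, as a description. On log2(CPM + 1), Gja1 and Sparcl1 had r = 0.891, Slc1a3 and Sparcl1 0.885, Apoe and Clu 0.879, and Aqp4 and Clu 0.876. Slc1a2 had r = 0.025 with Slc1a3, -0.114 with Sparcl1 and -0.373 with Aqp4. Ttr had r from -0.245 with Aqp4 to 0.502 with Slc1a2. Outside the members, the genes most like them by r were Nos1ap (0.959) and Usf3 (0.947) for Slc1a2, Tril (0.958) and Il6st (0.934) for Slc1a3, and Cldn10 (0.971) and Fth1 (0.967) for Glul. For Aqp4 they were Fam107a (0.977) and Gm34006 (0.968), for Gja1 Hspb8 (0.943) and Plekhh2 (0.927), and for Sparcl1 Zcchc24 (0.932) and BC017158 (0.932). For Apoe they were Bcl6 (0.925) and Pla2g7 (0.924), for Clu Fam160a1 (0.983) and Tm7sf3 (0.975), for Ptgds AC159282.1 (0.931), and for Ttr Rspo2 (0.948) and Gm48566 (0.943). All share the depth and cell makeup of the plates.

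Members also differed in the share of their counts from unspliced transcripts, which the deposited tables separate. Slc1a3 (23.1%), Gja1 (21.1%) and Slc1a2 (19.5%) had higher pooled shares, beside 23.5% for all genes. Sparcl1 (5.27%), Clu (4.41%), Ttr (3.46%), Glul (2.48%), Aqp4 (2.16%) and Ptgds (1.78%) had lower ones, and Apoe had 0.0468%. These shares pool all 20 plates, and over plates with 50 or more UMIs of the gene they varied, for Gja1 from 6.67 to 43.0% with a median of 16.1%. No full order among the members is therefore read from them. Over such plates Slc1a3 (13.1 to 47.8%) and Slc1a2 (8.05 to 33.7%) stayed above Clu (0.588 to 7.85%). The ranges of Gja1 and of Sparcl1 (1.61 to 13.5%) overlapped those of all 3 genes.

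Other genes of the members' pathways were read from lists. On the postnatal plates 42.6% of all genes passed and 18.9% were lower in positive wells. Of 13 tested genes of the glutamate and glutamine cycle, 5 were higher and 5 lower in postnatal positive wells (median -0.42 on the log2 scale, all genes 0.15). The vesicular glutamate transporters Slc17a6 (2.26) and Slc17a7 (2.12) were higher, and the glutamine transporters Slc38a5 (-6.36) and Slc38a3 (-5.79) lower. The habenula neuron markers share Slc17a6. All 8 tested astrocyte water, ion and gap junction genes were lower (median -4.42), among them connexin 30, Gjb6 (-5.04). This list shares 3 genes with the astrocyte markers. Of 8 lipoprotein genes 4 were lower (median -0.64), led by apolipoprotein D, Apod (-4.58), and the cholesterol exporter Abca1 (-3.84).

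Of 9 tested matricellular and synapse-forming genes, 6 were lower and 2 higher in postnatal positive wells (median -2.27). Sparc (-5.66), the namesake of the Sparcl1 family, and tenascin C, Tnc (-4.56), were lower, and the testicans Spock1 (1.21) and Spock2 (0.87) higher. All 4 tested carrier genes were lower (median -4.55), among them the thyroid hormone transporter Slco1c1 (-4.81). On the embryonic plates, where 19.6% of all genes passed and 9.81% were lower, the counts were 2 higher and 2 lower of 13 glutamate-cycle genes, 0 and 1 of 8 astrocyte water, ion and gap junction genes, 0 and 2 of 8 lipoprotein genes, 2 and 3 of 9 matricellular genes and 0 and 1 of 4 carriers. Over stages, where 38.3% of all genes passed and 20% rose, 6 rose and 2 fell of 14, 4 and 0 of 8, 3 and 1 of 8, 2 and 2 of 10, and 1 and 1 of 5 genes in the same order of lists.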

How the data were processed

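Single cells of mouse habenula were sequenced from 384-well plates, 15 in a developmental series and 5 in an E18 set. The authors deposited tables of expected counts (total, spliced and unspliced) per gene and well, and no scaling was found in the values: inverting a correction for UMI collisions with 4096 possible UMIs gave whole UMIs for 100% of them, to within 1e-06. Reads were trimmed with Trim Galore and aligned to mm10 with STAR 2.5.3a, per the submitters' processing notes. The sources used here do not give the strand of counting. Well numbers repeat on all plates by design and identify no cell across plates.

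A well was kept if it had 500 or more genes, 1000 or more counts from nuclear genes, and no more than 20% mitochondrial counts. No doublet caller was run. Counts were summed over the kept wells of a plate, or of its Pou4f1-positive (at least 1 UMI) and negative wells, and rounded to whole numbers. All genes were tested with edgeR 4.0.16 (filterByExpr, TMM, quasi-likelihood test, Benjamini-Hochberg adjustment, threshold 0.05) in R 4.3.3. SEs are the size of the log2 change divided by the square root of F. Stage comparisons were fitted over all series plates but E12, trends over all 15, and the Pou4f1 split with the plate as a block. DESeq2 1.42.0 was an alternative. Other alternatives changed the count used, the gene and well filters, the Pou4f1 minimum, thinning to 2000 UMIs and the plates. Totals per plate were 758697 to 7760372 counts in the series and 1849863 to 6586449 in the E18 set, so that a count of 0 (limit of 3 counts) allows up to 0.387 to 3.95 CPM. These limits cover counting error only.

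Gene IDs matched GENCODE M21 for 37952 of 37994 and 36064 of 36104 rows. All 10 members are described, with the 2 genes most correlated with each over the series plates and at most 2 genes per direction from each pathway list. A few genes that this rule names are not reported here. The members and the gene lists were chosen with earlier results of these data known. The scripts were tested on simulated data.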

Additional observations from a re-analysis of the deposited data

Results flagged for a closer look

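For 4 of the 10 members the difference between Pou4f1-positive and Pou4f1-negative wells changed from the 9 embryonic to the 6 postnatal plates. This was a test of that change itself in the fit over all 15 plates. Of all genes tested there, 11.3% passed, with 6.36% towards lower. The change, postnatal minus embryonic, was -3.18 on the log2 scale for the glutamate transporter Slc1a2, -1.36 for glutamine synthetase Glul, -2.68 for connexin 43 Gja1 and -1.71 for clusterin Clu. In the Pou4f1-positive wells, Slc1a2 ranged from 147 to 463 CPM before birth and from 10.3 to 59.4 after it. In the same wells Glul ranged from 77.0 to 164 and from 94.0 to 403 CPM, so its ranges overlapped. The 403 CPM was adult plate 1, whose positive part was 21 wells. The other postnatal plates stood at 94.0 to 115 CPM, within the embryonic range. With wells thinned to 2000 UMIs the change passed for Slc1a2 and Glul of these 4, and with no plate term in the fit for Slc1a2 alone. The change of Clu was lost without E13 plate 2 (edgeR, adjusted p = 0.0706). On the 5 C57BL/6 plates at E18, which are not in that fit, the difference was -1.38 for Slc1a2, -1.0 for Glul, -3.09 for Gja1 and -3.10 for Clu, beside postnatal values of -3.06, -1.94, -5.33 and -3.16 and embryonic ones of 0.12, -0.58, -2.65 and -1.45 in the series.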

How the results depend on the processing

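No result changed direction past the threshold under any alternative run. The number of members past the threshold was recomputed under each. With DESeq2 it was 2 from E11 to E13 (1 in the reported test), 3 from E13 to E15 (0), 6 from E15 to E18 (3) and 5 from P7 to adult (3). With no filter on low counts it was 6, 5 and 8 for the 3 embryonic steps, 8 from E18 to P4 (4), 2 from P4 to P7 (0), 9 from P7 to adult and 9 from P4 to adult (5). With only the 4 plates of a comparison in the fit it was 0 from E11 to E13, 0 from E15 to E18, 2 from P4 to P7 and 8 from P4 to adult, and with spliced counts alone 0 from E15 to E18. Without both adult plates 1 member passed in the stage trend (6), and without both E18 plates 4 in the embryonic split (7), alternatives added after the data were seen. With no replicate block (plate not in the fit) 4 passed in the embryonic split and 1 in its change after birth (4), where wells thinned to 2000 UMIs gave 2. The share of all genes that passed under each alternative, or with a plate left out, is not given here. No such count is therefore read as particular to the members.

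Replicate numbers are shared between stages by label alone. Over 21 pairs of stages, same-numbered plates correlated by over 0.1 in 3 (range -0.380 to 0.270), and left and right plates by 0.178, so no pairing was used. With the replicate number as a replicate block, 1 member passed from E15 to E18.

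Leaving out 1 plate at a time gave 0 to 2 members from E11 to E13, 0 to 2 from E13 to E15, 0 to 8 from E15 to E18, 1 to 7 from E18 to P4, 0 from P4 to P7, 0 to 8 from P7 to adult and 0 to 8 from P4 to adult. It gave 3 to 8 in the stage trend, 2 to 6 and 6 to 8 in the trends of Pou4f1-positive and negative wells, 4 to 7 in the embryonic and 8 to 9 in the postnatal split, 3 to 6 in their difference, 5 to 8 in the C57BL/6 split and 0 to 1 between sides. Where a stage keeps 1 plate, that plate is assumed to vary like the others. Ttr was not tested in the C57BL/6 split or in the trend of Pou4f1-negative wells. Of 110 levels per stage or side, 0 moved beyond the spread between plates with a minimum of 2000 UMIs per well and 47 with a mean over wells, and of 110 shares of wells 87 moved on thinning.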
